A study of Mus musculus with 5 samples.

Results

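The conjugating enzymes of the kidney were examined in mice with a tubular deletion of Prdm16 after ischemia-reperfusion injury. They were chosen by gene symbol: the UDP-glucuronosyltransferases (Ugt), the glutathione S-transferases (Gst, and Mgst for the microsomal forms), the sulfotransferases (Sult) and the glycine N-acyltransferases Glyat and Glyatl3. The files list 70 such genes among 35478. Of these, 44 had enough counts to be tested, among 16394 tested genes, and 18 had 3 counts or fewer in every library.

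RNA of the left kidney was compared between 2 Prdm16fl/fl mice (numbers 1 and 3 in the labels) and 3 Ksp-Cre/Prdm16fl/fl mice (numbers 1, 2 and 3), called Ksp-Cre mice below, with 1 library per mouse. The labels give the strain as C57BL/6J and the methods as C57BL/6J;129. Both groups are young adult males, and RNA came from kidney cortex according to the methods. Both carry Prdm16 alleles with loxP sites and underwent unilateral ischemia-reperfusion injury (UIRI): the left renal pedicle was clamped for 35 minutes at 38.5°C, the right kidney was taken out 10 days later, and the mice were killed on day 11. The groups differ in the Ksp-Cre transgene, which expresses Cre recombinase from the Ksp-cadherin promoter in tubular epithelium and which the controls lack. Neither sham-operated kidneys nor mice with Cre and no floxed allele are among the libraries used here, so an effect of injury or a genotype difference without injury cannot be measured, and an effect of Cre alone cannot be told apart from that of the deletion.

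Conjugation is the step at which a foreign or endogenous compound is joined to a water-soluble group so that urine or bile can carry it away. Glucuronic acid comes from UDP-glucuronate through the UGT enzymes of the endoplasmic reticulum, sulfate from PAPS through the cytosolic sulfotransferases, and glutathione through the GST enzymes. Glycine is joined in mitochondria to acids such as benzoate, giving hippurate. Proximal tubule cells carry much of this work in the kidney, and they also cut the glutathione conjugates down to mercapturates.

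The 5 libraries held between 14939040 and 16425161 counts. Ksp-Cre mouse 3 stood apart from the other 4: its correlation with them across genes (genes are not independent replicates) was 0.943 to 0.960, against 0.970 to 0.991 among the others. Several members, but not all whose value mouse 3 moved, are given with and without it. Prdm16 itself was at 22.6 ± 3.72 CPM (TMM-scaled counts per 1000000, SD, n = 2) in the controls and 17.4 ± 0.552 CPM (SD, n = 3) in Ksp-Cre mice, a log2 fold change of -0.38 with an adjusted p of 0.259 from edgeR's quasi-likelihood test. Reads from all exons and all cells of the tissue enter that value, which does not check the deletion of the floxed exon. All 13 markers of the proximal tubule had negative log2 fold changes, with a median of -1.45. For 2 of them the adjusted p was under 0.05 with a fall of 1 or more in log2 (0.628% of all genes). Their summed level was 25006 and 30958 CPM in the controls against 8091 to 12553 CPM in Ksp-Cre mice. Kap alone gave 12507 and 18227 CPM of this in the controls and 2996 to 7403 CPM in Ksp-Cre mice. The fall was not limited to the proximal tubule. Every tested marker of the thick ascending limb, distal convoluted tubule, collecting duct and podocyte was negative too (medians of -0.66, -1.0, -0.6 and -0.74). Endothelial and leukocyte markers were mixed in sign (medians of -0.14 and -0.01), and those of fibroblasts were positive (0.45). Bulk RNA cannot tell fewer proximal tubule cells from less RNA per cell, and the part of either in the conjugating enzyme values was not tested.

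The Ugt1a genes needed a look at sequence before their counts could be read. Each has its own first exon, and all of them splice into the same downstream exons on chromosome 1, the first of which lies at chr1:88215044-88215175 on the plus strand (GRCm38, GENCODE M21). The bases around that junction are shown for 4 of them, with the end of the gene's own exon in lower case and the start of the shared exon in capitals.
Ugt1a10: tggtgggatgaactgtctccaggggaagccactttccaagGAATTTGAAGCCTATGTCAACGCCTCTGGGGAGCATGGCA
Ugt1a7c: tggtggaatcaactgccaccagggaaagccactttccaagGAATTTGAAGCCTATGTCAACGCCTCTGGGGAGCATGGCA
Ugt1a2: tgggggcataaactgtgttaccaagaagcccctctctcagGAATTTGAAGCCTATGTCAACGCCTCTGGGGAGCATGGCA
Ugt1a1: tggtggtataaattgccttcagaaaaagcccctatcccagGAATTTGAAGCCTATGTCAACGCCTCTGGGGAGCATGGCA
The capitals are the same in all 4, and the lower-case parts of these 4 genes are not identical. Shared exons made up 57.2 to 72.2% of the exonic length of the 9 Ugt1a genes in the files. Ugt1a8 was listed with 0 counts in 4 libraries and 2 counts in Ksp-Cre mouse 3, while Ugt1a7c had 1138 to 2523, so reads within the shared exons had not been added to every gene of the cluster. The counts of these genes therefore rest on their own exons.

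The stretch of 250 bases before the gene start was searched for short motifs in the 62 of 70 genes that the RefSeq table holds (GRCm38.p6). The promoters of 4 genes are printed because their genes are those with the clearest fall, a higher level in every Ksp-Cre mouse, opposite movements between mice, or a far higher level in Ksp-Cre mouse 3 alone. Capitals mark the matches. A further RefSeq promoter of Mgst1, at chr6:138141337-138141586, held no match and is not printed. The motifs were the antioxidant response element core TGACNNNGC, a part of the HNF1 site GTTAATNAT, the HNF4 core CAAAGTCCA and the TATA box TATAAA, each on both strands.
Ugt3a1, chr15:9279579-9279828, plus strand: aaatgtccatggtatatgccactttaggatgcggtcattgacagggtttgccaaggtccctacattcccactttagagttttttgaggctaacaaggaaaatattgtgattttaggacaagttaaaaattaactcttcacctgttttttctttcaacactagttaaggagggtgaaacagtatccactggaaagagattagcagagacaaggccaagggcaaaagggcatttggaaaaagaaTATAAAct
Ugt1a10, chr1:88055161-88055410, plus strand: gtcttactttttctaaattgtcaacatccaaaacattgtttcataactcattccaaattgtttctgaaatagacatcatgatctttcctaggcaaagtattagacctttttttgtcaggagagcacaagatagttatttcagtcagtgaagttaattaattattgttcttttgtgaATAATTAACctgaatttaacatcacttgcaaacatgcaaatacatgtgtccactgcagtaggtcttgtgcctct
Sult1d1, chr5:87569007-87569256, minus strand: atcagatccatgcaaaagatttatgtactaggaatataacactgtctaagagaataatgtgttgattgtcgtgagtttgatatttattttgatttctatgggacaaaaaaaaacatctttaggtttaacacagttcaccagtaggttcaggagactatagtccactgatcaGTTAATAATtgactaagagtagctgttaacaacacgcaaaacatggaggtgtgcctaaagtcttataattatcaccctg
Mgst1, chr6:138140277-138140526, plus strand: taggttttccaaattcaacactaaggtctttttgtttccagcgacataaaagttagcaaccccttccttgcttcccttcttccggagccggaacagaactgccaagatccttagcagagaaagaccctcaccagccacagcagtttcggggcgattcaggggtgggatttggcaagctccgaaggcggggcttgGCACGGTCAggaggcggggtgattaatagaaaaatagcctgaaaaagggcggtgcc
The HNF1 letters were found in 8 of 62 (12.9%) conjugating enzyme promoters and in 0.866% of the 27025 genes of the table; the 8 are Ugt1a1, Ugt1a9, Ugt1a10, Sult1d1 and 4 Sult2a genes, which are related in sequence. The antioxidant core was found in 4 (6.45%), Gsta3, Gstm5, Gstm7 and Mgst1, against 11.5% of all genes, the TATA box in 21% against 14.3%, and the HNF4 letters in 0 against 0.451%. A further core, GCGTG, the site of the aryl hydrocarbon receptor, was in 19.4% against 30.9%. These are matches of letters and not measured binding.

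Ugt3a1 and Ugt3a2 were the conjugating enzyme genes that fell in Ksp-Cre kidneys, and none rose. With an adjusted p below 0.05 (edgeR's quasi-likelihood test, over all genes) and an absolute log2 fold change of 1 or more, 2 of 44 members were lower, where 0.628% of all genes were, and 0 were higher, where 0.0793% were. By sign alone 31 members had negative and 13 positive values, with a median log2 fold change of -0.48 against 0.038 for all genes. Without adjustment, 16 members passed a p of 0.05 on the lower side (11.2% of all genes did) and 1, Ugt1a10, on the higher side (7.64%).

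Across all 44, the 3 Ksp-Cre libraries lay below both controls for 23 members, against 21.3% of all genes, and above both for 3 members, Ugt1a10, Gsta1 and Gsto1, against 20.3%. DESeq2 called 5 members lower, Ugt3a1, Ugt3a2, Ugt2b38, Ugt8a and Sult1b1 (2.43% of all genes were called lower), and 0 higher (0.771%). The fit without Ksp-Cre mouse 3 also called 5 lower, with Ugt2a3 in the place of Ugt8a (3.10% of all genes), and 0 higher (1.43%). By adjusted p alone that fit passed 18 members on the lower side, against 11.0% of all genes, and 1 on the higher side, Ugt1a10, against 7.82%. Among the 18 were Gstz1, Gstk1, Sult1b1, Gstm1, Mgst3 and Gstt1 (adjusted p of 0.00164 to 0.042, edgeR). These genes are given below with all 5 mice only. In the fits without any one of the other 4 mice, 0 members passed with edgeR, and 0 of all genes did, with 8 to 12 members on the lower side at an unadjusted p under 0.05. These were 9 members without control 1 (7.20% of all genes), 8 without control 3 (5.19%), 12 without Ksp-Cre mouse 1 (9.49%) and 10 without Ksp-Cre mouse 2 (8.88%).

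**Figure D1:**
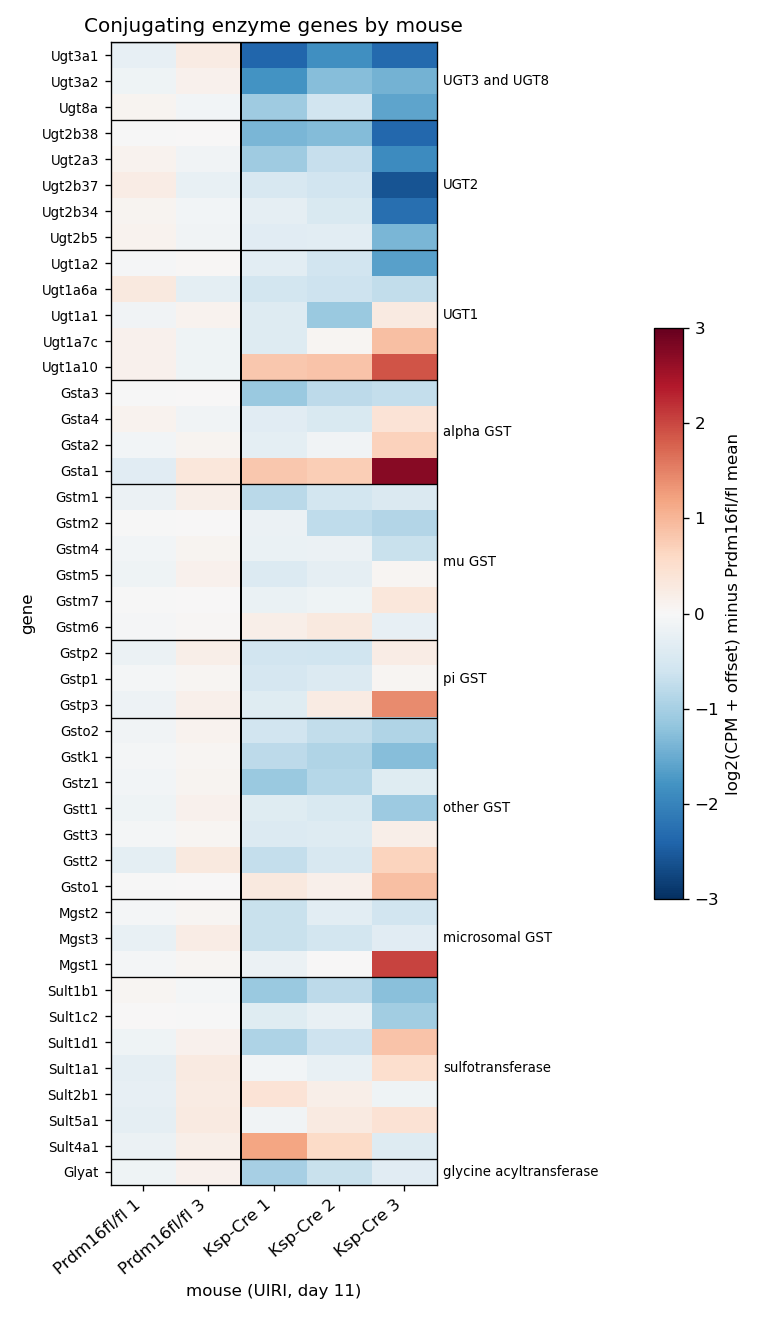
Heat map of the 44 tested conjugating enzyme genes (rows, grouped by family) in the 5 mice (columns). Colour is log2(CPM + 0.5) minus the mean of the 2 Prdm16fl/fl mice, so blue is lower and red is higher; the UGT3, UGT8 and UGT2 blocks are blue in all 3 Ksp-Cre mice, while Gsta1 and Mgst1 are red in Ksp-Cre mouse 3.

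Ugt3a1 and Ugt3a2 encode UDP-glycosyltransferases that stand next to each other on the plus strand of chromosome 15 (9279908 to 9315124 and 9335637 to 9371041 in the files' coordinates, whose build the sources used here do not name). These enzymes use sugars other than glucuronate. Ugt3a1 was at 62.2 and 86.5 CPM in control mice 1 and 3, and at 13.6, 20 and 14.2 CPM in Ksp-Cre mice 1, 2 and 3. The groups did not overlap, and the gene fell, with means of 74.4 ± 17.2 CPM (SD, n = 2) and 15.9 ± 3.53 CPM (SD, n = 3) and a log2 fold change of -2.22 (SE 0.23, adjusted p = 0.0337, edgeR).

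Ugt3a2 was the more abundant of the pair, at 553 and 666 CPM in the controls and 174, 250.3 and 227 CPM in Ksp-Cre mice. It fell by 1.49 on the log2 scale (SE 0.19, adjusted p = 0.0412, edgeR). Their coding sequences are 93.3% identical over 1572 bases, and none of the 100-base stretches of either transcript recurs in another GENCODE gene, so reads of this length can be placed on one of them. Both kept their sign in every fit. Without any one of the mice other than Ksp-Cre mouse 3 neither passed (adjusted p of 0.111 to 0.496 for Ugt3a1 and 0.123 to 0.496 for Ugt3a2, edgeR). The call of Ugt3a2 was also lost with library size scaling (adjusted p = 0.0532, edgeR), with a gene length trend removed (0.0545) and with limma on log2(FPKM + 0.1) (0.0579), and both were lost with glmTreat and with the mouse number as a block (0.149).

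Ugt8a encodes the enzyme that adds galactose to ceramide. It was at 169.5 and 153 CPM in the controls and at 76.6, 108 and 53.6 CPM in the Ksp-Cre mice. All 3 lay below both controls, but the log2 fold change of -1.02 (SE 0.28) had an adjusted p of 0.136 with edgeR. The lowest level was that of mouse 3, at 0.579 times the mean of mice 1 and 2, and without it the log2 fold change was -0.80 (adjusted p = 0.0103, edgeR).

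All 5 tested UGT2 genes were lower in each Ksp-Cre mouse than in both controls (21.3% of all genes were), and none passed the test with all 5 libraries. These enzymes glucuronidate steroids, bile acids and drugs. Ugt2b38, the member with the highest FPKM in both controls, was at 1044 and 1045 CPM in the controls and at 402, 421 and 204 CPM in Ksp-Cre mice. The means were 1045 ± 0.429 CPM (SD, n = 2) and 343 ± 120 CPM (SD, n = 3), with a log2 fold change of -1.61 (SE 0.31) with an adjusted p of 0.0711 from edgeR, and of 3.7e-04 in the edgeR fit without Ksp-Cre mouse 3, where the log2 fold change was -1.34.

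Ugt2b37 was at 523 and 386 CPM in the controls. The Ksp-Cre values were 321, 304 and 73.8 CPM, so that mouse 3 was at 0.236 times the mean of mice 1 and 2. The log2 fold change was -0.97 (SE 0.58, adjusted p = 0.42, edgeR) and -0.54 without mouse 3 (adjusted p = 0.0403). Ugt2a3, a low-level member at 2.83 and 2.37 CPM in the controls, was at 0.965, 1.42 and 0.333 CPM in Ksp-Cre mice, a log2 fold change of -1.5 (SE 0.54, adjusted p = 0.214, edgeR). Ugt2b34 and Ugt2b5 had log2 fold changes of -0.77 and -0.62, and both were lowest in mouse 3. Without that mouse the values were -0.36 and -0.34, with adjusted p-values of 0.0619 and 0.0903 from edgeR, and that of Ugt2a3 was -1.12 with an adjusted p of 0.0437.

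The 5 other UGT2 genes, among them Ugt2b1 and Ugt2b36, were at or under 3 counts in every library. Ugt2b38 and Ugt2b5 are 97.0% identical in coding sequence and share many 100-base stretches (24.2% of those of Ugt2b38), so that reads may be divided between them. The summed FPKM of the family does not depend on that division. It was 850.2 and 741 in the controls against 445, 435 and 153 in Ksp-Cre mice.

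**Figure D2:**
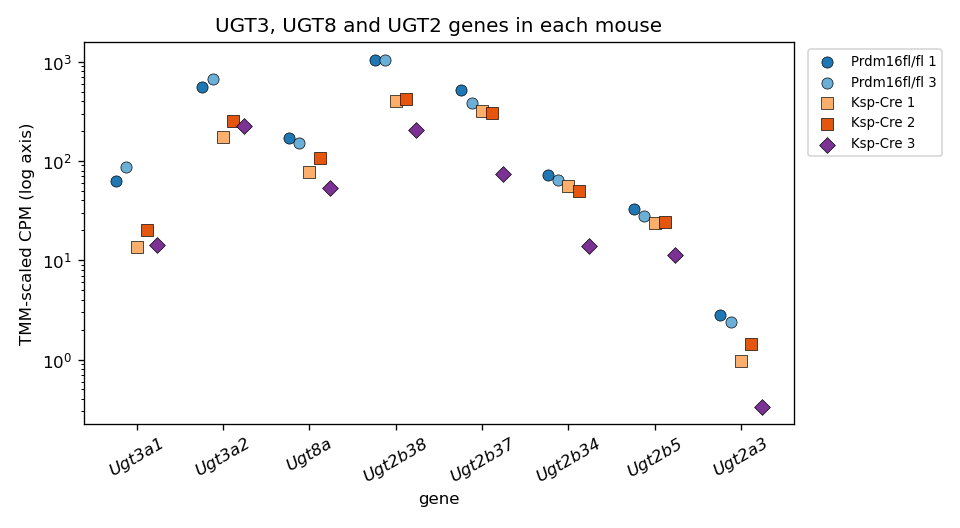
TMM-scaled CPM (log axis) of 8 UGT genes, 1 point per mouse (circles for Prdm16fl/fl, squares and diamonds for Ksp-Cre). For each of the 8 genes the 3 Ksp-Cre points lie below both Prdm16fl/fl points (as for 21.3% of all genes), and for the UGT2 genes the diamond of Ksp-Cre mouse 3 is the lowest.

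The UGT1 genes, whose enzymes handle bilirubin, phenols and many drugs, were mixed in direction, with 3 negative and 2 positive log2 fold changes among the 5 tested. Ugt1a7c was the main transcript of the cluster, with 97.9 and 81.7 CPM in the controls and 68.8, 93.9 and 168 CPM in Ksp-Cre mice. The groups overlapped (log2 fold change 0.30, SE 0.37, adjusted p = 0.707, edgeR), and without mouse 3 the value was -0.14. Divided by its own exon alone, its level was 104 FPKM on average, where the deposited FPKM, which counts the shared exons in the length, averaged 30.8.

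Ugt1a10 was low in the controls, at 2.22 and 1.79 CPM, and higher in every Ksp-Cre mouse, at 3.86, 4.02 and 8.73 CPM. The log2 fold change of 1.45 (SE 0.46) had an adjusted p of 0.18 with edgeR, and without mouse 3 it was 0.97 with an adjusted p of 0.0344. Of the remaining 7 genes, Ugt1a6a, Ugt1a2 and Ugt1a1 were tested, with log2 fold changes of -0.81, -0.96 and -0.46, and 4 were too low to test. Without mouse 3 the values of Ugt1a2 and Ugt1a1 were -0.55 and -1.08 (adjusted p of 0.242 and 0.141, edgeR). Ugt1a2 was lowest in mouse 3, at 0.333 CPM, where Ugt1a7c and Ugt1a10 were highest.

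Among the alpha class GST genes, Gsta3 came nearest to the threshold. Its enzyme is known for the isomerization of steroid precursors as well as for detoxification. Gsta3 was at 122 and 123 CPM in the controls and 56.3, 70.9 and 74.1 CPM in the Ksp-Cre mice, a log2 fold change of -0.87 (SE 0.15, adjusted p = 0.0548, edgeR). No library overlapped between the groups, and the adjusted p was 0.00191 without mouse 3.

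Gsta2, which had the highest mean FPKM of the GST genes over the 5 mice but was below Gstm1 in both controls, was at 346 and 388 CPM in the controls and 300.1, 339 and 595 CPM in Ksp-Cre mice. Its log2 fold change was 0.16 (SE 0.31, adjusted p = 0.81, edgeR) with all 5 mice and -0.20 without mouse 3. Gsta1 went from 0.742 and 1.51 CPM to 2.27, 2.13 and 9.99 CPM, a log2 fold change of 2.08 (SE 0.87, adjusted p = 0.271, edgeR) that was 0.98 without mouse 3 (adjusted p = 0.103, edgeR). These 2 genes are 97.5% identical in coding sequence, and 81.8% of the 100-base stretches of Gsta1 recur in another gene (mainly Gm3776), so their separate counts are uncertain.

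Gstm1, the leading mu class gene, was at 534 and 671 CPM in the controls and 342, 409 and 441 CPM in Ksp-Cre mice. The groups did not overlap, with a log2 fold change of -0.60 (SE 0.18, adjusted p = 0.154, edgeR). Gstm5 overlapped, at 168 and 200.4 CPM against 139, 152 and 192 CPM. The pi class gene Gstp1 was at 158 and 169 CPM in the controls and at 116, 123 and 171 CPM in Ksp-Cre mice, so mice 1 and 2 were below both controls and mouse 3 above both. Gstp3, at 1.70 to 7.06 CPM in Ksp-Cre mice and 2.02 and 2.65 CPM in the controls, was likewise highest in mouse 3. The log2 fold changes of Gstm5 and Gstp1, -0.20 and -0.26, turned to 0.06 and 0.05 when a trend with gene length was removed, and were -0.34 and -0.45 without mouse 3 (adjusted p of 0.0736 and 0.0164, edgeR). That of Gstp3 went from 0.72 to -0.04 without mouse 3.

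Of the theta, zeta, omega and kappa genes, 4 of 7 tested were lower in all 3 Ksp-Cre mice than in both controls (21.3% of all genes were). Gstk1, a mitochondrial and peroxisomal form, was at 39.3 and 43.0 CPM against 23.8, 21.7 and 16.7 CPM, a log2 fold change of -0.99 (SE 0.18, adjusted p = 0.0604, edgeR). Gstz1, the maleylacetoacetate isomerase of tyrosine breakdown, was at 228 and 256 CPM against 112, 134 and 189 CPM, with a log2 fold change of -0.74 (SE 0.23, adjusted p = 0.171, edgeR).

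Gstt1 was at 124 and 150.1 CPM in the controls and 106, 99.3 and 64.2 CPM in Ksp-Cre mice. Its neighbour Gstt2 went the other way in mouse 3, with 151 and 227 CPM against 113, 133 and 294 CPM. The log2 fold change of Gstt2 was -0.07 and turned positive in 5 of the other fits, while without mouse 3 it was -0.61 with an adjusted p of 0.0463 from edgeR. Gsto1, an omega form, was higher in all 3 Ksp-Cre mice, at 70.0, 63.2 and 106 CPM against 55.8 and 57.4 CPM, a log2 fold change of 0.50 (SE 0.24, adjusted p = 0.325, edgeR), or 0.24 without mouse 3 (adjusted p = 0.133).

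The microsomal transferase Mgst1 was near its control level in 2 Ksp-Cre mice and several times higher in the third. Its enzyme lies in the endoplasmic reticulum and outer mitochondrial membranes, where it also reduces lipid peroxides. The values were 138 and 149 CPM in the controls and 126, 145 and 583 CPM in Ksp-Cre mice, a level in mouse 3 that was 4.31 times the mean of mice 1 and 2. The log2 fold change of 0.99 (SE 0.69, adjusted p = 0.487, edgeR) was -0.08 without mouse 3. Mgst3 was lower in all 3, at 67.5, 73.0 and 85.2 CPM against 92.2 and 125 CPM (log2 fold change -0.53, SE 0.17, adjusted p = 0.189, edgeR).

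Sult1d1, which sulfates catecholamines and prostaglandins, had the highest mean FPKM of the members, 435 over the 5 mice, with the highest level of any member in mouse 3 alone. It was at 963 and 1166 CPM in the controls. In Ksp-Cre mice 1 and 2 it was at 561 and 689.8 CPM, below both controls, and in mouse 3 at 1909 CPM, above both. The means of 1065 ± 144 CPM (SD, n = 2) and 1053 ± 744 CPM (SD, n = 3) were therefore nearly the same (log2 fold change -0.02, SE 0.53, adjusted p = 0.99, edgeR), and the sign turned positive in 5 of the other fits. Without mouse 3 the log2 fold change was -0.76 with an adjusted p of 0.00924 from edgeR.

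Sult1b1, a thyroid hormone and phenol sulfotransferase, was lower in all 3 Ksp-Cre mice, at 4.14, 5.26 and 3.66 CPM against 9.91 and 9.04 CPM. Its log2 fold change was -1.12 (SE 0.24, adjusted p = 0.0808, edgeR). Sult1c2 was at 83.1 and 82.9 CPM in the controls and 64.9, 70.5 and 39.9 CPM in Ksp-Cre mice, and Sult4a1 was at 2.02 and 2.73 CPM against 6.02, 3.72 and 1.67 CPM. The first did not overlap between the groups and the second did, and neither passed the test (adjusted p of 0.324 and 0.541, edgeR). Without mouse 3 the log2 fold changes were -0.29 and 1.04 (adjusted p of 0.064 and 0.0518, edgeR), against -0.51 and 0.68 with it.

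Sult1e1, the estrogen sulfotransferase, did not pass the filter on low counts. It had 5 and 1 counts in the controls, 4 and 8 in Ksp-Cre mice 1 and 2, and 162 in mouse 3. Of the 21 sulfotransferases, 12 were at or under 3 counts everywhere, including all 8 Sult2a genes.

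Glyat, the mitochondrial enzyme that makes hippurate, was at 392 and 468 CPM in the controls and 215, 269 and 341 CPM in Ksp-Cre mice. All 3 were below both controls (log2 fold change -0.65, SE 0.22, adjusted p = 0.193, edgeR), and without mouse 3 the log2 fold change was -0.83 with an adjusted p of 0.00562. Glyatl3 had a mean of 0.0326 FPKM and was not tested.

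Ordered by the mean FPKM (a scale per length) over all 5 mice, the 10 most abundant members were Sult1d1, Gsta2, Gstm1, Ugt2b38, Glyat, Gstp1, Gstm5, Ugt2b37, Mgst1 and Ugt3a2. They made up 74.5 to 79.6% of the summed FPKM of the 70 genes in each mouse. Means fell from 435 FPKM for Sult1d1 to 157 FPKM for Ugt3a2. The SD over the 5 mice, which takes both genotypes together, was 205 and 85.7 FPKM for these. Differences between neighbours in the order were not tested. The order was not the same in each mouse: Ugt2b38 was first in both controls, at 537 and 515 FPKM, Gsta2 in Ksp-Cre mice 1 and 2, at 317 and 351 FPKM, and Sult1d1 in mouse 3, at 774 FPKM. The total over all members was 3737 and 3981 FPKM in the controls and 2592, 2826 and 3734 FPKM in Ksp-Cre mice.

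The families made up that total in unlike ways. Summed over all UGT genes, the level was 1162 and 1087 FPKM in the controls and 567, 604 and 314 FPKM in Ksp-Cre mice, with mouse 3 lowest. For all GST and MGST genes it was 1824 and 2038 FPKM against 1535, 1639 and 2345 FPKM, and for the sulfotransferases 459.7 and 522 FPKM against 314, 367 and 823 FPKM, with mouse 3 highest in both. The UGT3 and UGT8 total was 0.39 times that of the controls in the mean of mice 1 and 2 and 0.357 times in mouse 3.

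**Figure D3:**
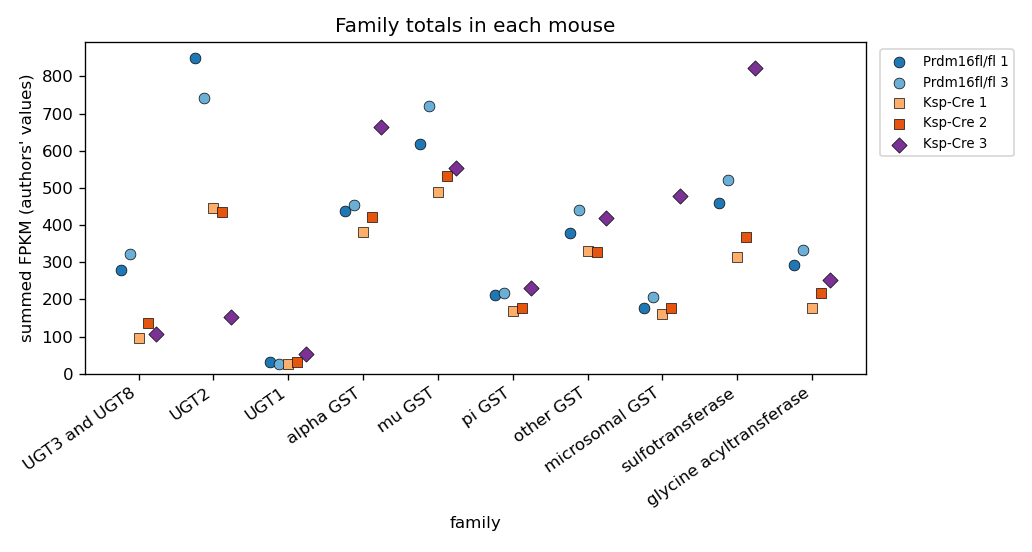
Summed FPKM (the authors' values) of each enzyme family in each mouse. Ksp-Cre mouse 3 (diamond) is the lowest for UGT2 at 153 and the highest for the sulfotransferases at 823 and the microsomal GST genes at 478.

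Ksp-Cre mice 1 and 2 were both below both controls for 33 of 44 members, where 30.7% of all genes were. For 9 of these members mouse 3 was above all other mice, against 6.48% of all genes: Ugt1a1, Gstm7, Sult1d1, Gsta4, Gsta2, Gstt3, Gstt2, Gstp1 and Gstp2. Reads may be divided between Gstp1 and Gstp2, so these are not 2 separate results. In all, mouse 3 was the highest of the 5 for 17 members and the lowest for 17, against 32.0% and 32.0% of all genes. Both UGT3 genes lay within the range of the others.

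**Figure D4:**
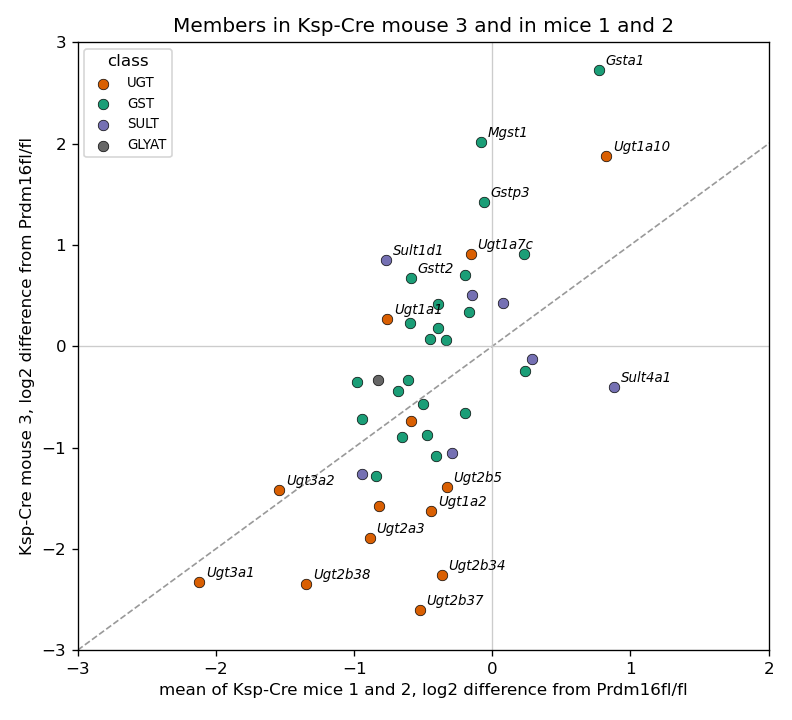
Each point is 1 tested conjugating enzyme gene, with the mean log2 difference of Ksp-Cre mice 1 and 2 from the Prdm16fl/fl mean on the x axis and that of Ksp-Cre mouse 3 on the y axis; the dashed line marks equal values. UGT2 genes lie below the line, Mgst1, Gsta1 and Sult1d1 above it, and Ugt3a1 and Ugt3a2 on or near it.

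Mouse 3 also differed in marker genes. Fga, which encodes a fibrinogen chain made by liver and by injured tubule, was at 931 CPM in mouse 3 and 82.1 to 188 CPM in the others, whereas Alb was at most 2.15 CPM in all 5. Of the other liver genes of the list, Apoh was likewise highest in mouse 3, at 12.9 CPM against 1.31 to 6.74 CPM, Ttr was at 61.8 and 86.2 CPM in the controls and 15.4 to 29.1 CPM in Ksp-Cre mice, and Apoa2 at 4.45 and 4.02 against 1.2 to 1.93 CPM. The list summed to 159 to 209 CPM in 4 mice and 975 CPM in mouse 3. Of 8 markers of tubular injury, all had positive log2 fold changes and none passed the test, with summed levels of 14964 and 15526 CPM in the controls and 32048 to 38170.2 CPM in Ksp-Cre mice. Most of that sum was Spp1, at 12277 and 13442 CPM in the controls and 27016 to 33774 CPM in Ksp-Cre mice. The 5 erythroid genes summed to 6.67 and 10.8 CPM in the controls and to 151, 150.3 and 40.5 CPM in Ksp-Cre mice. The part of these in the conjugating enzyme values was not tested.

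Several genes that act after glutathione transfer fell. Of 17 tested genes of the mercapturate pathway, which trims glutathione conjugates at the brush border and acetylates the cysteine left over, 5 were called lower (0.628% of all genes were) and none higher, with a median log2 fold change of -1.08 beside 0.038 for all genes. Ggt1, the gamma-glutamyltransferase that takes the first residue off, was at 651 and 721 CPM in the controls and 238, 292 and 277 CPM in Ksp-Cre mice, a log2 fold change of -1.35 (SE 0.15, adjusted p = 0.0366, edgeR). The others were Kyat1 (-1.01), a lyase of cysteine conjugates, Acy1 (-1.58) and Acy3 (-1.43), which deacetylate mercapturates, and Dpep1 (-1.43), the dipeptidase of the brush border.

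Genes that act before the transferase in glycine conjugation also fell. Among 7 tested acyl-CoA synthetase and glycine-supply genes, 2 were called lower, beside the same 0.628%, and the median was -1.41. Acsm2, which makes the benzoyl-CoA used by Glyat and is itself a marker of the proximal tubule, was at 2289.6 and 2072 CPM against 697, 779 and 741 CPM (log2 fold change -1.56, SE 0.15, adjusted p = 0.0327, edgeR). Shmt2, which makes glycine in mitochondria, was at 249 and 281 CPM against 100.2, 100.4 and 98.9 CPM (log2 fold change -1.41, SE 0.11, adjusted p = 0.0242, edgeR). Acsm5 had a log2 fold change of -1.42 and an adjusted p of 0.0548.

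Of the lists that supply the donors, 0 of 8 UDP-glucuronate genes and 0 of 6 PAPS genes passed in either direction, with medians of -0.18 and -0.25. Papss1, a PAPS synthetase, came nearest, at 135 and 137 CPM against 91.0, 86.1 and 70.9 CPM (adjusted p = 0.0698, edgeR). In glutathione supply 2 of 10 genes were called lower (0.628% of all genes), Ggct and Chac2, both of which break down glutathione or its gamma-glutamyl products, with log2 fold changes of -1.19 and -1.28, and Gss, the glutathione synthetase, had -1.15 with an adjusted p of 0.0541. Inmt, a methyltransferase of indoleamines, was the 1 gene called lower of 8 other conjugating enzymes, beside 0.628% of all genes, from 159 and 204 CPM to 14.9, 18.8 and 25.7 CPM (log2 fold change -3.20, SE 0.25, adjusted p = 0.0242, edgeR).

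The list of 12 deconjugating enzymes had 0 calls and a median of 0.24. It holds Gusb, sulfatases and carboxylesterases, not all of which are known to act on the conjugates formed here. The carboxylesterases Ces1f and Ces1d had log2 fold changes of -1.89 and -2.58 with adjusted p-values of 0.0505 and 0.0785. None of the 11 Nrf2 target genes outside the families passed, with a median of -0.02 and 6 negative and 5 positive log2 fold changes. The Ksp-Cre libraries lay above both controls for 4 of them and below both for 2 (20.3% and 21.3% of all genes). Mouse 3 was the highest of the 5 mice for Hmox1 (153 against 37.1 to 59.8 CPM), Srxn1 (314 against 89.7 to 118 CPM), Nqo1, Slc7a11, Txnrd1, Gclc and G6pdx. It was not the highest for Gclm, Me1, Abcc4 and Osgin1. Across all genes mouse 3 was the highest for 32.0%. Abcc4, an exporter of conjugates, had a log2 fold change of 0.56 (adjusted p = 0.0726, edgeR). Those of Osgin1 and Me1 were -0.98 and -0.58 (adjusted p of 0.0795 and 0.121, edgeR). Of 14 nuclear receptors and other regulators of these enzymes none passed, with 8 negative and 6 positive log2 fold changes. Nfe2l2, which encodes Nrf2, had a log2 fold change of 0.37 (adjusted p = 0.26, edgeR). That of Nr1i3, a low-level gene, was -1.19 (adjusted p = 0.251, edgeR).

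**Figure D5:**
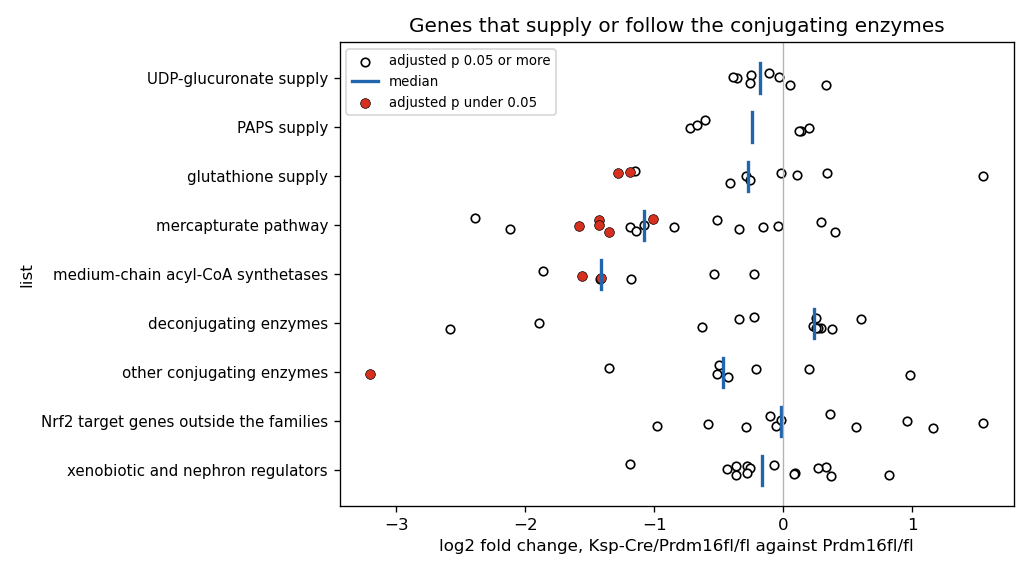
Log2 fold change (Ksp-Cre against Prdm16fl/fl) of the genes in 9 lists around the conjugating enzymes, 1 point per tested gene, filled red at an adjusted p under 0.05, with the median as a blue bar. The red points lie on the lower side, 5 of them in the mercapturate pathway.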

How the data were processed

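RNA-seq libraries of the left kidney of 5 mice were analysed, grouped by genotype as the labels give it. The authors deposited 3 values per gene: the raw count of reads, without normalization, and the TPM and FPKM made from it by gene length and library total. A recomputation of both from the counts gave the deposited values within rounding. Per the labels, featureCounts 2.0.1 and DESeq2 1.16.1 were used. The labels name the build hg38, which is human, while the files list mouse genes in coordinates that differ from GRCm38, so their build is not given in the sources used here. Whether counting used the strand is not stated, and overlapping genes are uncertain. Broken lines of 5 genes were rejoined.

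The 16394 genes kept by filterByExpr of edgeR 4.0.16 (R 4.3.3) were scaled with TMM and tested with its quasi-likelihood test, with Benjamini-Hochberg adjustment over all of them. CPM values are per 1000000 TMM-scaled counts. Called genes had an adjusted p below 0.05 and an absolute log2 fold change of 1 or more. Alternatives were DESeq2 1.42.0, limma 3.58.1 on log2(FPKM + 1) and log2(FPKM + 0.1), other filters and scalings, removal of a gene length trend, glmTreat, the mouse number as a block, and each mouse left out. The fits were tested on simulated data.

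Members and lists were chosen with earlier results of these data known. Named members are those with an adjusted p under 0.05, the 2 with the highest FPKM in each family, and the 5 largest and 5 smallest log2 fold changes among members whose mean log2 CPM was 0 or more. From each pathway list, the 3 genes with the smallest p were eligible. Any other gene was chosen after its values were seen. Motif and junction sequences are from RefSeq (GRCm38.p6) and GENCODE M21. Groups of 2 and 3 mice allow 10 splits, so an exact permutation test of 1 value cannot give a one-sided p under 0.1.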

Additional observations from a re-analysis of the deposited data

How the results depend on the processing

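With all 5 mice, the count of members called lower was 2 of 44 (103 of all 16394 genes). It was 5 of 58 with DESeq2 (381 of 25633). It was 1 of 44 with library size scaling (34 of 16394) and with the gene length trend removed (62 of 16394). With limma on log2(FPKM + 0.1) it was 1 of 39 (30 of 13345), and with glmTreat 0 of 44 (0 of 16394). Left out in turn, the mice gave 0 to 5, and only leaving out Ksp-Cre mouse 3 gave more than 0. By adjusted p alone the lower count of 2 of 44 (143 of 16394 genes) became 8 of 58 with DESeq2 (872 of 25633). With no filter beyond 1 count it was 5 of 58 (408 of 25633). It was 1 of 44 with library size scaling (37 of 16394) and with the length trend removed (74 of 16394). With limma on log2(FPKM + 0.1) it was 1 of 39 (34 of 13345), and with glmTreat 0 of 44 (0 of 16394). Without Ksp-Cre mouse 3 the lower count was 18 (11.0% of all genes), and 0 without Ksp-Cre mouse 1 or 2. The higher count went from 0 to 1 without Ksp-Cre mouse 3 (7.82% of all genes). Library size scaling shifted the median over all tested genes to 0.149. The median of the members, -0.48, was -0.36 with DESeq2 and with no filter, -0.35 with at least 10 counts, -0.37 with library size scaling, -0.34 with the length trend removed, -0.21 and -0.25 with limma, and -0.47 to -0.27 with mice left out.

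With the mouse number as a replicate block 0 members were called, in either direction, and 0 passed the adjusted p; 17 lower (8.44% of all genes) and 3 higher (4.14%) had an unadjusted p under 0.05. Same-numbered mice did not deviate together (r of 0.001 and -0.022). The deviations of the controls from their own mean mirror each other (r of 0.001 and -0.001 with Ksp-Cre mouse 1). This check therefore cannot tell whether the numbers pair the samples. Over the fits that leave out 1 mouse, the log2 fold change ranged from -0.20 to 0.35 for Gsta2, -0.14 to 0.55 for Ugt1a7c, -0.08 to 1.35 for Mgst1 and -0.04 to 1.08 for Gstp3, each negative without Ksp-Cre mouse 3 alone, and from -0.76 to 0.29 for Sult1d1 and -0.61 to 0.25 for Gstt2, lowest without Ksp-Cre mouse 3. Signs also turned with the length trend removed for Gstm5 (0.06), Gstp1 (0.05), Sult1d1 (0.04) and Gstt2 (0.02), and with library size scaling for Sult1d1 (0.06) and Gstt2 (0.02). The cause was not tested. The other 15 of 23 named and tested members never changed sign. Low members such as Ugt2a3 rest on few counts, which limits their precision.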
